A study of Rattus norvegicus with 6 samples.

Results

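The 4 genes described here encode Reg (regenerating islet-derived) proteins, small secreted C-type lectins, and were followed in the dorsal root ganglia (DRG) of rats with chronic constriction injury (CCI) of the sciatic nerve. The members Reg3b, Reg3a, Reg3g and Reg1a were found by symbol in a table of 43350 gene rows, with 1 row each. The CCI group held 3 male Sprague-Dawley rats whose left sciatic nerve was loosely tied with sutures, and the sham group held 3 whose nerve was exposed and not ligated, although the sample labels list no treatment for them. The lumbar 4 to 6 ganglia of the operated side were taken on day 11, 1 rat per library, and total RNA was sequenced after depletion of ribosomal RNA. According to the methods, only rats that behaved as the model intends entered the groups. The labels state no age, every rat was male, and no unoperated group was included.

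Reg proteins are best known from the exocrine pancreas and the intestinal epithelium, where they are released in large amounts during injury and inflammation. Some Reg3 lectins bind and kill bacteria, and their genes are induced by cytokines of the interleukin 6 and interleukin 22 families through the transcription factor Stat3. In the peripheral nervous system the product of Reg3b, also called pancreatitis-associated protein I, is known as a factor that injured neurons make and that drives division of Schwann cells.

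Libraries held 75423546 to 87615743 counts each, and the detection limit was set at 3 counts, which is 0.0341 to 0.0394 CPM (counts scaled to a common TMM-corrected library size). All 12 sensory neuron markers looked up, among them Prph, Scn10a, Calca and Nefh, were detected in every library. Rows with a mean FPKM (fragments per kilobase of transcript, scaled to library size) of at least 0.5 over the 6 libraries, 26663 in all, entered edgeR's quasi-likelihood test. The study's limits, an unadjusted p under 0.05 together with a log2 fold change whose size reached 0.58, defined a call, and a stricter one asked for a Benjamini-Hochberg p under 0.05 across every tested row. CCI 1 was the highest CCI library in 431 of the 686 rows called higher (62.8%). How often CCI 3 was the lowest among these rows was not counted.

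Reg3b and Reg3a were higher in the ganglia of CCI rats, while Reg3g and Reg1a were at or near 0 in both groups. Reg3b rose 23.4-fold and Reg3a 6.79-fold in the fitted model. At the limits of the study 2 of the 4 members were called higher and 0 lower, where 2.57% of all rows tested were called higher. Both genes passed the filter on mean FPKM only through the CCI libraries, and the other members were too low to be tested. In bulk tissue, more RNA per cell and more cells that make it cannot be told apart.

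Reg3b (row on chromosome 4, 109467272 to 109471506, plus strand, of the rat genome that the authors call V101) is the injury-responsive member that the rat literature calls pancreatitis-associated protein I. It had 2117, 1467 and 739 reads in CCI rats 1 to 3 against 46, 57 and 88 in sham rats 1 to 3. Every CCI library lay above every sham library, and the lowest CCI library was 9.12 times the highest sham library in CPM. In 8.63% of all rows tested the CCI libraries lay above the sham libraries in this way.

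Reg3b averaged 18.0 ± 8.17 CPM after CCI, compared with 0.768 ± 0.274 CPM after sham surgery (SD, n = 3). The log2 fold change was 4.55 (standard error 0.46), with an unadjusted p of 3.75e-05 and an adjusted p of 0.0445 by edgeR after Benjamini-Hochberg adjustment. An adjusted p under 0.05 with a higher level in CCI was reached by 17 rows, or 0.0638% of those tested. By size of the log2 fold change Reg3b stood at place 40 among the 20072 tested rows with a gene symbol. The adjusted call was lost when CCI 2, sham 1, sham 2 or sham 3 was left out, with adjusted p = 0.137, 0.154, 0.154 and 0.140 in the same edgeR test, and limma on log2(FPKM + 1) moved the log2 fold change to 2.68 with an adjusted p of 0.0705.

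On the scale of transcript abundance, Reg3b lay near the bottom of the tested rows in sham and in their upper part in CCI. Its FPKM exceeded that of 2.00% to 4.74% of the tested rows in the sham libraries, and of 65.3% to 85.2% in the CCI libraries. Of the 35757 rows with a count in any library, those under the filter are not in this ranking. Reg3b passed the filter only through the CCI libraries, so its low place in sham follows largely from the filter. The coefficient of variation of Reg3b was 45.5% among the CCI rats and 35.6% among the sham rats. CCI 1 had the highest level and CCI 3 the lowest.

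Reg3a (chromosome 4, 109477903 to 109480659, plus strand) encodes pancreatitis-associated protein II, a close relative of Reg3b in sequence. It had 254, 258 and 74 reads in CCI rats 1 to 3 against 32, 8 and 50 in sham rats 1 to 3. The groups did not overlap, but the lowest CCI library, CCI 3, was only 1.61 times the highest sham library, sham 3, in CPM. Such a separation, with CCI above sham, held for 8.63% of all rows tested.

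Reg3a averaged 2.43 ± 1.26 CPM after CCI, compared with 0.356 ± 0.252 CPM after sham surgery (SD, n = 3). Its log2 fold change was 2.76 (standard error 0.72), called at the limits of the study with an unadjusted p of 0.00733, but its adjusted p was 0.261 by edgeR after Benjamini-Hochberg adjustment. With limma on log2(FPKM + 1) the log2 fold change was 1.18, and DESeq2 in place of edgeR gave an adjusted p of 0.00149. The gene passed the limits of the study with each library left out in turn, with log2 fold changes between 2.33 and 3.37. Its coefficient of variation was 52.0% among the CCI rats and 70.7% among the sham rats, of which sham 2 with 8 counts was the lowest.

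Reg1a (chromosome 4, 109497962 to 109501082, plus strand), the founding member of the family and a product of pancreatic acinar cells, had 4 counts in CCI 3 and 0 in the other 5 libraries. Reg3g (chromosome 4, 109529679 to 109532234, minus strand), which encodes a lectin active against Gram-positive bacteria, had 0 counts in all 6 libraries. A count of 0 allows up to 3 counts, so Reg3g could lie anywhere below 0.0341 to 0.0394 CPM depending on the library. Neither gene showed a difference that could be detected at this depth. Reg4, a family member on another chromosome, also had 0 counts in all 6 libraries.

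**Figure D1:**
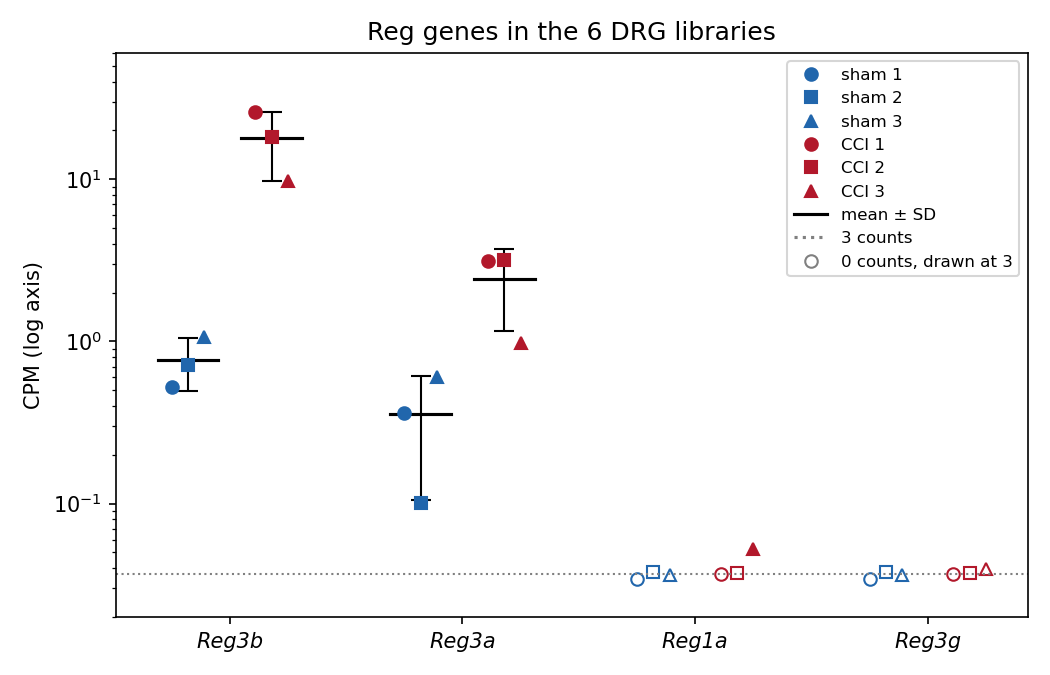
CPM (log axis) of the 4 Reg genes in each of the 3 sham (blue) and 3 CCI (red) libraries, with the group mean ± SD in black where every library had counts, a dotted line at 3 counts and open symbols for libraries at 0, drawn at 3 counts. Reg3b and Reg3a lie higher in every CCI library than in any sham library, while Reg1a has 4 counts in CCI 3 alone and Reg3g has none.

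Levels of the pair were compared per unit of transcript length, as FPKM. In the sham group the FPKM was 0.336 ± 0.118 for Reg3b and 0.290 ± 0.207 for Reg3a (SD, n = 3), which did not differ beyond the spread between rats. In the CCI group it was 8.08 ± 3.65 for Reg3b and 2.05 ± 1.07 for Reg3a. The row length that counts, library totals and FPKM imply was not quite constant, at 2229 to 2297 bases for Reg3b and 1189 to 1263 for Reg3a over the libraries, and both rows carry identifiers from the transcript assembly of the authors.

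Within each library, Reg3b held 89.3%, 85.0% and 90.9% of the counts of the pair in CCI 1, 2 and 3, and 59.0%, 87.7% and 63.8% in sham 1, 2 and 3. The sham shares rest on 65 to 138 counts, with 95% Wilson intervals of 47.9% to 69.2% in sham 1, 77.5% to 93.6% in sham 2 and 55.5% to 71.3% in sham 3, which cover counting error only. Sham 2 lay within the range of the CCI libraries, and the other sham libraries lay below it. The log2 ratio of the FPKM values of Reg3b and Reg3a averaged 2.06 ± 0.42 in CCI and 0.51 ± 1.27 in sham (SD, n = 3), a difference of 1.55 with p = 0.2 in a two-sided exact permutation test, which cannot go below 0.1 with 3 rats against 3. With so few rats this test cannot settle whether the increase of Reg3b was larger than that of Reg3a.

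**Figure D2:**
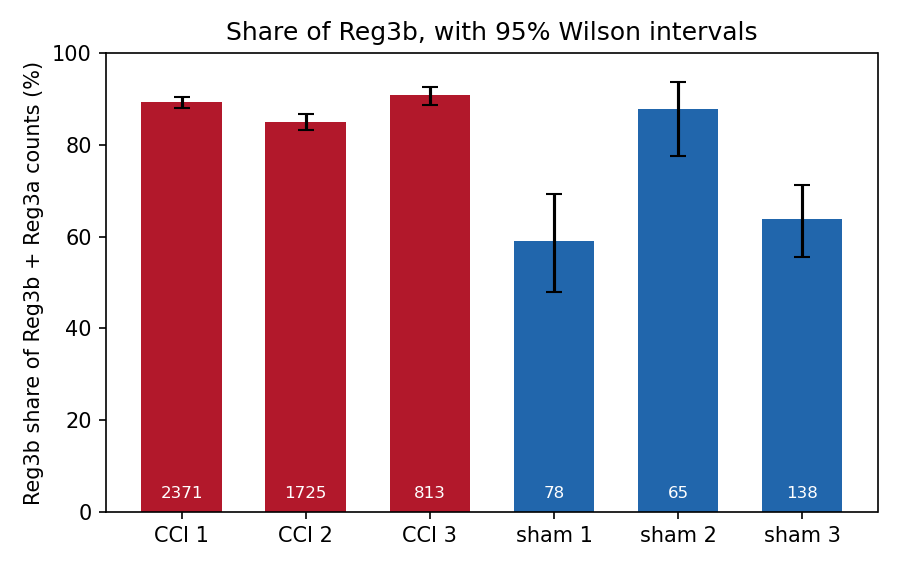
Reg3b counts as a percentage of the summed counts of Reg3b and Reg3a in each library (bars, CCI red and sham blue), with 95% Wilson intervals and the summed counts printed at the foot of each bar. The 3 CCI libraries lie between 85.0% and 90.9%, and sham 2, at 87.7%, lies among them while sham 1 and sham 3 are lower.

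All 4 members lie in 1 cluster of 65.0 kb on chromosome 4, in the order Reg3b, Reg3a, Reg1a and Reg3g, with Reg3g alone on the minus strand. Reg3b and Reg3a lie on the same strand with 6396 bases between them. Nearly all counts of the cluster came from this pair. A protein-coding row, AC115202 on the minus strand, lies between Reg3b and Reg3a and had 0 counts in all 6 libraries (this row was picked out after its values were seen). Of the 3 nearest protein-coding rows with a symbol on each side, Ctnna2 and LRRTM1, which encode a catenin of neuronal junctions and a synaptic adhesion protein, had log2 fold changes of 0.03 and 0.03, and Lrrtm4 and Gcfc2 had 0.10 and 0.42. None of these 4 was called (the LRRTM1 row lies inside the Ctnna2 row on the other strand, so reads may be shared), and AABR07061158 and AABR07061254 were too low to be tested. Of these 4, only Gcfc2 had an unadjusted p under 0.05, at 0.0456 in the edgeR test, and it fell short of the limit on size. The row of Ctnna2 ends 424430 bases before the cluster begins. Lrrtm4 and Gcfc2 begin 1167323 and 3130375 bases after the cluster ends.

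**Figure D3:**
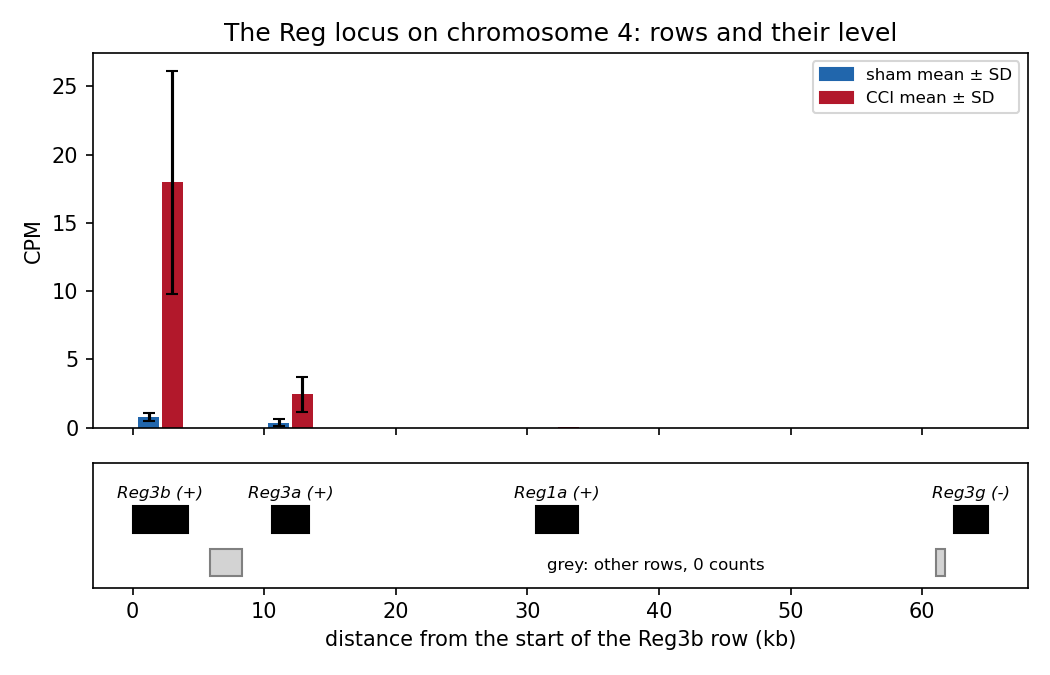
Mean CPM ± SD (3 rats a group, sham blue, CCI red) of the rows of the Reg cluster, above a map of the rows drawn to scale against the distance in kb from the start of the Reg3b row, with the strand in brackets and other rows with 0 counts in grey. The bars stand at the left pair of rows, Reg3b and Reg3a, with Reg1a under 0.1 CPM and Reg3g at 0.

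Since genes of the family are known targets of Stat3, the promoter windows of the members were searched for the spaced palindrome TTCNNNGAA that Stat proteins bind (N is any base, and the motif reads the same on both strands). The windows, from RefSeq on the GRCr8 build, which is not the genome of the counts, run from 250 bases before to 50 bases after the start of a gene and were found for 4 of 4 members. The motif was present once in Reg3b and once in Reg1a, and it was not in the windows of Reg3a or Reg3g, while 8.87% of all 33469 promoter windows held it. The 30 bases around the match are shown for Reg3b and Reg1a with the match in capitals, and for Reg3a and Reg3g the stretch that aligns with the Reg3b match is shown with the aligned bases in capitals, so that the site can be compared across the members.
Reg3b: cacctgctctTTCTTGGAAactctttgagc
Reg3a: ctgcaattttTGCTGGGAAgctctctgaat
Reg3g: tttgtgctttTGATGGGAAccccctagagt
Reg1a: ttgtttgtTTCTGGGAAtgatgaacattgg
These stretches lie at chr4:112419637-112419666 (plus strand) for Reg3b, chr4:112430284-112430313 (plus strand) for Reg3a, chr4:112484851-112484880 (minus strand) for Reg3g and chr4:112450216-112450245 (plus strand) for Reg1a, all on GRCr8, and each is printed in the direction of its gene. The match begins 129 bases before the start of Reg3b and 242 bases before the start of Reg1a. A match is a description of the letters in the window, and no binding was measured.

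The Reg3b window shared 72.7% of 260 aligned positions with that of Reg3a and 69.4% of 288 with that of Reg3g in a global alignment. Counted over all 300 bases the order turned, with 63.0% for Reg3a and 66.7% for Reg3g, so neither promoter was clearly the closer. The AP-1 motif TGAGTCA was in no member's window (4.63% of all windows) and neither was the CRE motif TGACGTCA (1.83%), both searched on both strands. The C/EBP motif TTGCNNAA was in the Reg3a windows alone, in both of the entries for that gene (10.6% of all windows), and the TATA motif TATAAA was in those of Reg3b, Reg3g and Reg1a (14.2%).

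Among cytokines that act on the Reg genes, Il6 was above the limit of 3 counts in every CCI library and at 0 in every sham library. Il6, the leading inducer of acute-phase genes, had 164, 44 and 24 counts in CCI 1, 2 and 3 and 0 in each sham library. Its mean over the CCI libraries was at least 26.6-fold higher against a limit of 3 counts per library. That mean was carried by CCI 1, with 2.02, 0.545 and 0.315 CPM in CCI 1, 2 and 3. Il6 lay under the filter, and in edgeR's quasi-likelihood test without a filter its unadjusted p was 0.00167 and its adjusted p 0.191 (Benjamini-Hochberg). As with Reg3b, Il6 was highest in CCI 1 and lowest among the injured rats in CCI 3. CCI 1 was the highest CCI library in 62.8% of all rows called higher, so its place was not particular to these genes. Lif, an injury cytokine of the same family, had 11, 4 and 27 reads in CCI rats 1 to 3 against 36, 50 and 37 in sham rats 1 to 3, which did not overlap, and its unadjusted p without a filter was 0.0809 in the edgeR test. Il22 had 4 counts in CCI 3 and 0 elsewhere, and Il17a had 0 counts in every library. Of the 13 cytokines of the list, 4 were tested, and their log2 fold changes had a median of 0.40 (1 of them, Cntf, in a row joined with Zfp91), where the median of all rows was 0.01. With edgeR's quasi-likelihood test 0 of them were called, 1 had an unadjusted p under 0.05, and 0 passed an adjusted p under 0.05 in DESeq2.

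No receptor of these cytokines reached the limits of the study. Of the 11 looked up, 9 were tested and 0 were called with edgeR's quasi-likelihood test, with log2 fold changes between -0.13 and 0.53 and a median of 0.21. An unadjusted p under 0.05 was found for 3 of them, all higher in CCI, namely Il6r (log2 fold change 0.53, unadjusted p = 0.00485 in edgeR's test), the interleukin 6 receptor, Lifr (0.37), the shared receptor of Lif, and Il17ra (0.23). DESeq2 called 2 higher at an adjusted p under 0.05. The common signal-transducing chain Il6st had a log2 fold change of -0.13. Il22ra1, the receptor chain specific to interleukin 22, had 0 to 45 counts per library and was not tested.

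Of the 12 transducers and targets of this pathway, 11 were tested and 1, Socs3, was called higher. Socs3, the feedback inhibitor that Stat3 itself switches on, had 554, 490 and 230 reads in CCI rats 1 to 3 against 158, 113 and 148 in sham rats 1 to 3. Its log2 fold change was 1.67 (SE 0.32), with an unadjusted p of 0.00168 and an adjusted p of 0.157 by edgeR after Benjamini-Hochberg adjustment. The groups did not overlap, and in 8.63% of all rows tested every CCI library likewise lay above every sham library. CCI 3 was the lowest CCI library for Socs3, as it was for Reg3b and Reg3a. It was also the lowest for 9 of the 11 tested genes of this list, most of them not called, so this order was not particular to Socs3. Stat3 itself had a log2 fold change of 0.23 (SE 0.06), with an unadjusted p of 0.00952 in the edgeR test, and fell short of the limit on size, as did Jak2 with 0.40. Extl3, a glycosyltransferase of the cell surface that has been proposed as a receptor for Reg proteins, had 2368 to 7069 counts per library, with overlapping groups and a log2 fold change of 0.24 (standard error 0.51).

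**Figure D4:**
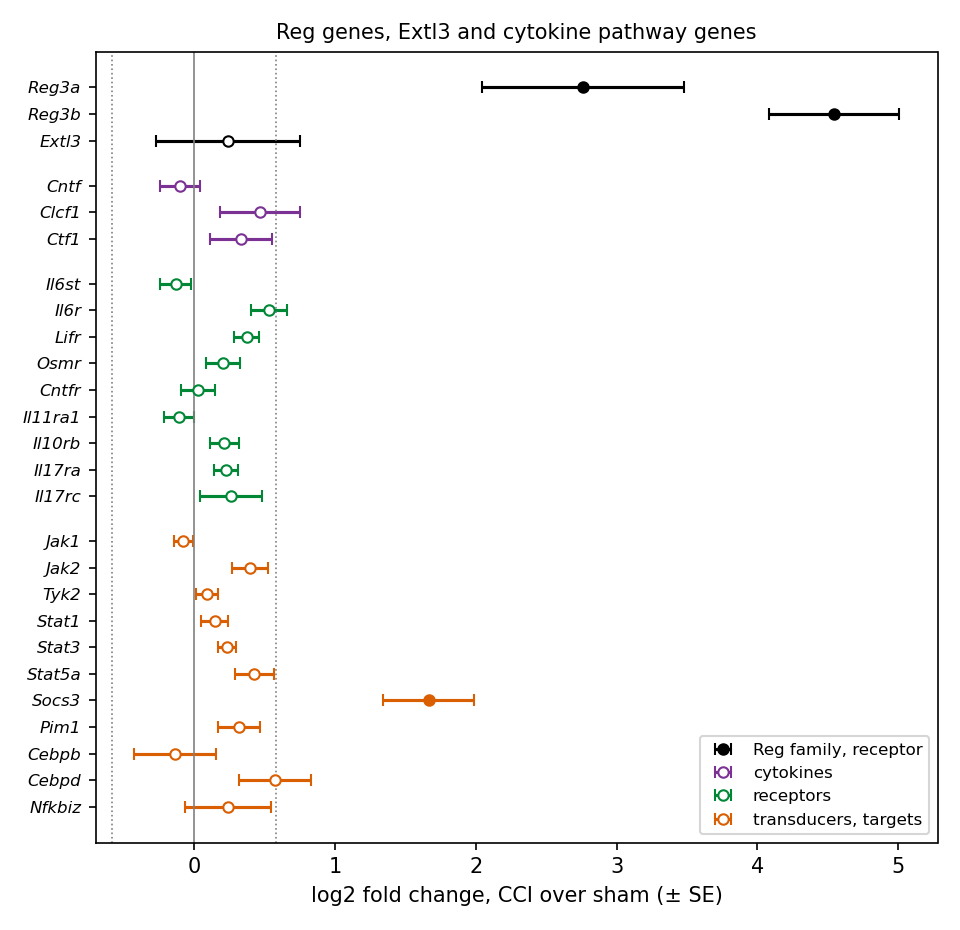
Log2 fold change of CCI over sham with its standard error (edgeR's quasi-likelihood fit, 3 rats a group) for the tested genes of the Reg family and its proposed receptor Extl3 (black), of 3 of the 4 tested cytokines (purple), receptors (green) and transducers and targets (orange), filled where called and with dotted lines at 0.58 in size. Reg3b at 4.55, Reg3a at 2.76 and Socs3 at 1.67 are the filled points, and the other genes lie between -0.14 and 0.57.

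The rows whose pattern over the 6 libraries was closest to that of Reg3b were Stac2, Gal, Cckbr, Tgm1 and AABR07044837, in that order. The measure was the root mean square difference of log2(CPM + 0.1), each gene set to its own sham mean, and it ran from 0.23 for Stac2 to 0.58 for AABR07044837 in log2 units. Stac2, a regulator of calcium channels, had 3997, 2417 and 1993 reads in CCI rats 1 to 3 against 120, 121 and 172 in sham rats 1 to 3. Gal, the neuropeptide galanin, had 6767, 2526 and 2998 and 167, 165 and 236 counts in the same order. For Stac2 and Gal the log2 fold changes were 4.40 and 4.49, with adjusted p = 0.0105 and 0.0383 by edgeR after Benjamini-Hochberg adjustment. Cckbr, a receptor for cholecystokinin and gastrin, had a log2 fold change of 4.56 and Tgm1, a transglutaminase, 5.14. Cckbr, Tgm1 and AABR07044837 did not pass adjustment, with adjusted p = 0.0789, 0.109 and 0.0789 in the same edgeR test. The level of Tgm1 was carried by CCI 1, with 2642 counts against 525 and 459 in CCI 2 and 3.

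The rows closest to Reg3a were Smagp, Nudt6, Arg1, LOC688459 and Ecel1, at 0.58 to 0.67 log2 units, so the closest was about as far from Reg3a as the fifth was from Reg3b. Their log2 fold changes lay between 1.90 and 2.59. After adjustment in edgeR 0 of these 5 stayed under 0.05, while all 5 passed the limits of the study. Ecel1 is a membrane peptidase of neurons induced by nerve damage, and Arg1 is the arginase of macrophages. Since likeness was measured on the libraries that also define the groups, closeness of 2 genes describes these rats and is no test.

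**Figure D5:**
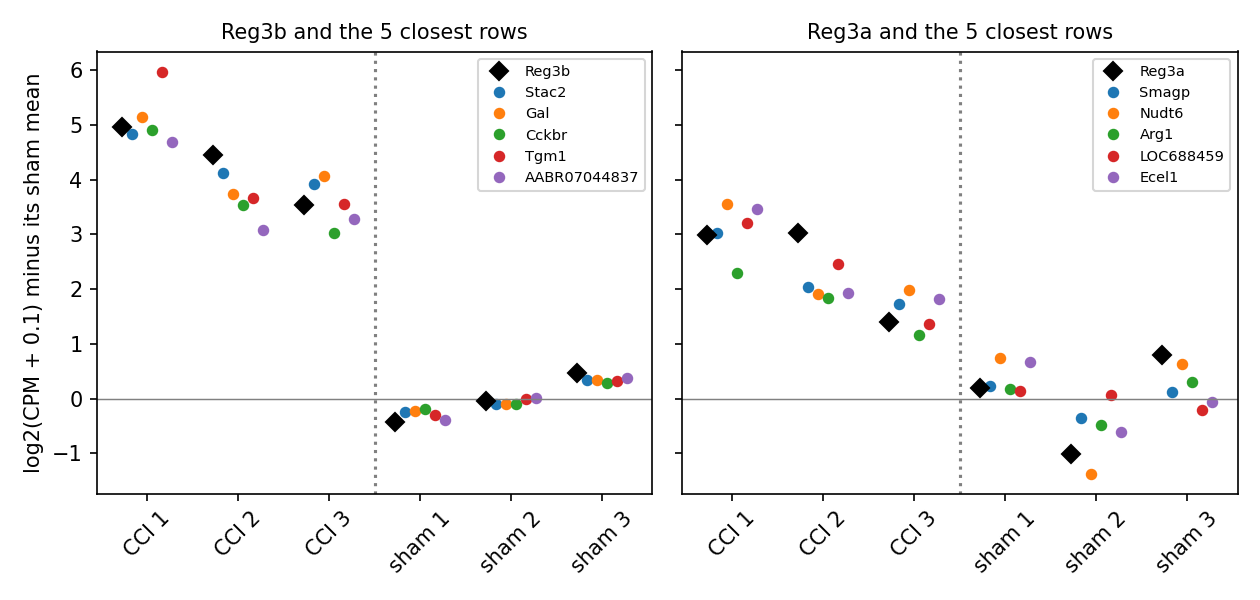
Log2(CPM + 0.1) minus the mean of the sham libraries, by library (CCI 1 to 3 left and sham 1 to 3 right of the dotted line), for Reg3b and Reg3a (black diamonds) and the 5 tested rows closest to each (coloured circles). The genes near Reg3b are highest in CCI 1, and Reg3a is about equally high in CCI 1 and CCI 2 and lower in CCI 3.

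Reg3b was accompanied by a group of genes that injured sensory neurons switch on. All 14 genes of that list were tested and called higher, where 2.57% of all rows tested were. Their log2 fold changes had a median of 3.66 and a range from 1.02 for Gap43 to 7.91 for Vip. For 5 of them the p stayed under 0.05 by edgeR after Benjamini-Hochberg adjustment. This list was chosen with results of these data known and is no independent evidence of its direction. CCI 1 was the highest CCI library for 13 of the 14 and CCI 3 the lowest for 12. The summed level of the list was 667 to 1106 CPM in CCI and 272 to 285 CPM in sham.

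A part of the macrophage markers was also higher in CCI. Of 10 tested, 5 were called higher, where 2.57% of all rows tested were. These were Cd74, C1qa, Cx3cr1, Cd68 and Csf1r, with log2 fold changes of 0.75 to 1.48. The list had a median of 0.63 and a lowest value of -0.003. An adjusted p under 0.05 was reached by 0 of the 10 in edgeR and by 5, all higher, in DESeq2. The summed level was 189 to 278 CPM in CCI and 115 to 145 CPM in sham, and CCI 3 was the lowest CCI library for all 10. The 12 sensory neuron markers were not called in either direction by edgeR's quasi-likelihood test, although 5 (1 up and 4 down) had an unadjusted p under 0.05, and DESeq2 with adjustment called 0 up and 1 down. Their summed level was 6916 to 7416 CPM in CCI and 7808 to 8758 CPM in sham, but without Nefh, a neurofilament gene with a log2 fold change of -0.55 (SE 0.08), the groups overlapped at 4750 to 4878 CPM and 4543 to 5175 CPM (Nefh was set apart after its values were seen). The part of these cell types in the level of Reg3b and Reg3a was not tested.

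Tissues that make Reg proteins in quantity left few counts in these libraries. Of 16 markers of pancreatic acinar cells, 15 were found, 4 (Cpa1, Prss1, Prss2 and Gp2) had 0 counts in every library, and the summed level of the list was 4.64 to 5.88 CPM in CCI and 5.49 to 9.48 CPM in sham. Of these, 3 were tested and 0 called by edgeR, with 0 at an unadjusted p under 0.05 and 0 at an adjusted p under 0.05 in DESeq2. Of 12 markers of the intestinal epithelium, 11 were found, none reached the filter, and 4 (Cdx1, Cdx2, Tff3 and Apoa4) had 0 counts in all libraries. The summed level of that list was higher in every CCI library than in any sham library, at 2.19 to 2.84 CPM against 0.390 to 1.04 CPM in sham. Except in sham 2, most of it came from Cdh17 (153, 131 and 110 reads in CCI rats 1 to 3 against 47, 0 and 47 in sham rats 1 to 3) and Vil1 (34, 91 and 37 and 12, 4 and 25). Cdh17 had an unadjusted p of 0.0753 and Vil1 of 0.0274 in edgeR's quasi-likelihood test without a filter, and neither passed adjustment. The part of such tissue in the level of the Reg genes was not tested.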

How the data were processed

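According to the study's methods, reads that passed filtering were aligned by the authors to a rat genome called V101, and StringTie and edgeR then gave transcript models and expression. The submitters' processing notes name HISAT2 2.0 and StringTie 1.3.0. Whether counting used strand is not given in the sources used here. The deposited counts are whole numbers of reads per gene row and library, not normalized. The authors' FPKM values relate these counts to library total and row length and list a small constant in place of 0. With at least 100 counts, the implied row length held within 1% over libraries for 99.0% of rows. It varied more for Reg3b and Reg3a, by 3.02% and 6.22% over all 6 libraries, which include libraries with fewer counts. Reads could be shared among the similar Reg genes, whose counts are uncertain to that degree.

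Rows were matched by symbol, with protein-coding type first and then the largest total count. The members and gene lists were chosen with earlier results of these data known. Each list gene that was called may be named, and the other genes are given by counts and ranges, except those named after their values were seen. Also named are the 5 rows most like each tested member and the 3 protein-coding rows on each side of the cluster. Counts of 26663 rows whose FPKM averaged 0.5 or more were fitted with edgeR 4.0.16 (TMM factors of 0.988 to 1.01, quasi-likelihood F test, no block). The standard error is the log2 fold change divided by the square root of F. Alternatives used DESeq2 1.42.0, limma 3.58.1, other filters and scaling, a block for the replicate number, and each library left out. The test was tried on simulated counts. R 4.3.3, Python 3.11.15, pandas 2.3.3, numpy 2.4.6, scipy 1.17.1, Biopython 1.88 and matplotlib 3.10.9 were used. Promoter identity came from a global alignment. Between 5.37% and 5.72% of each library fell on rows that carry no symbol. Groups came from the sample titles, which number the replicates and do not name animals. The library protocol in the labels mentions a pooled sample, while the methods describe 1 rat per sample, and if RNA was pooled the p-values measure the spread between pools. A gene of the cytokine list is not reported here by name.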

Additional observations from a re-analysis of the deposited data

How the results depend on the processing

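Reg3b and Reg3a kept their direction and their call at the limits of the study in all 14 alternatives each, with log2 fold changes from 2.68 to 4.86 and from 1.18 to 3.37. The adjusted p of Reg3b, 0.0445 in edgeR's quasi-likelihood test, stayed under 0.05 in 8 of 14 alternatives. It was 0.0705 with limma on log2(FPKM + 1), 0.237 with the replicate block, and 0.0286 to 0.154 with each library left out, and the call was lost without CCI 2 or any 1 sham library. For Reg3a it was over 0.05 in 13 of 14 and 0.00149 in DESeq2 (0.224 to 0.471 with each library left out). The count of all rows higher in CCI at the limits of the study, 686, was 410 with limma on log2(FPKM + 1) and 345 with protein-coding rows alone, and 561 to 767 with each library left out. At an adjusted p under 0.05 it went from 17 to 432 with DESeq2, 41 with protein-coding rows alone, 3 to 40 with each library left out and 0 in edgeR with the replicate block, where 1199 rows were higher at an unadjusted p under 0.05. The fits with 1 library left out keep 2 or 3 rats in a group. Same-numbered libraries did not deviate together (r = -0.01, -0.03 and -0.06 across genes). The labels do not say what the numbers mean, and these correlations cannot settle whether the numbers pair the rats. Reg1a and Reg3g were too low to be tested. Without a filter Reg1a had an unadjusted p of 0.196 in edgeR's quasi-likelihood test, and Reg3g with 0 counts could not be fitted in any alternative. Counts of Reg3a in the sham group were low, at 8 to 50.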

Other observations

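Of 15 other secreted defence and acute-phase proteins looked up, 14 were found and 9 tested, and 2 of these, Hamp and Lyz2, were called higher, where 2.57% of all rows tested were. Log2 fold changes ran from -0.51 to 5.54 with a median of -0.02, against 0.01 for all rows tested. The gene not found by symbol was Serpina3n, which the paper lists among its upregulated genes, so these values leave it out. Hamp, the iron hormone hepcidin, had 280, 224 and 123 reads in CCI rats 1 to 3. Sham rats 1 to 3 had 14, 0 and 0 (unadjusted p = 0.0023, adjusted p = 0.174 by edgeR after Benjamini-Hochberg adjustment). Lyz2, the lysozyme of macrophages and neutrophils, differed by 0.98 on the log2 scale (SE 0.16), with unadjusted p = 0.000554 and adjusted p = 0.109 by edgeR. The acute-phase proteins Cp and A2m had log2 fold changes of 0.21 and -0.02, and Lcn2 and S100a8 had -0.42 and -0.49, none of them called. For S100a8, sham 1 stood apart with 525 counts, against 167 and 132 in sham 2 and 3 and 248, 154 and 146 in CCI 1, 2 and 3. Ltf, Ccl20 and Defb1 had 0 counts in all 6 libraries.

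Neutrophil markers were low, with a summed level of 12.7 to 16.9 CPM in CCI and of 27.0, 10.8 and 9.83 CPM in sham 1, 2 and 3. The groups thus overlapped through sham 1 alone, and every CCI library lay above sham 2 and sham 3. Of 9 markers, 5 were tested and 0 called by edgeR's quasi-likelihood test, with 0 at an unadjusted p under 0.05 and 0 at an adjusted p under 0.05 in DESeq2.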
